A study of Mus musculus with 10 samples.

Results

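H3K9me1 and H3K9me2, histone H3 carrying a single methyl group or a pair of methyl groups at lysine 9, were compared in skeletal muscle of fed mice. The sites are the peaks of the libraries labelled H3K9me1 fed and H3K9me2 fed, 14178 and 171402 regions, which together make up 185580 of the 365066 regions in the 8 peak lists of the series. The series used chromatin immunoprecipitation followed by sequencing (ChIP-seq) in muscle of fed mice and of mice starved for 24 h, with 10 libraries for the glucocorticoid receptor (GR), the lysine demethylase LSD1, both marks and input chromatin. Each antibody had 1 library per condition, so all differences below describe these libraries, and no spread between replicates could be set beside them. Both fed libraries came from skeletal muscle of C57BL/6J mice, labelled as 10 weeks old although the text of the study gives another age, and no genetic change or drug is named for them. They shared a library code with the fed input. Muscle holds nuclei of fibres and of other cells, and the lists cannot tell these apart.

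Methylation of H3K9 is built up stepwise. The enzymes EHMT1 and EHMT2 add the mono- and dimethyl states in gene-bearing chromatin, whereas SUV39H1 and SUV39H2 act mainly on the repeats around centromeres, where trimethylation is bound by heterochromatin proteins. LSD1 and the KDM3 enzymes remove the lower states. H3K9me2 is known from many tissues as wide domains over silent, gene-poor chromatin, and H3K9me1 as a mark that is also found near transcription start sites (TSS) of active genes.

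The peaks of both marks were short, and few sites of the deposited lists were called for both. Of the 14178 H3K9me1 peaks, 725 (5.11%, 95% CI 4.76 to 5.49) were overlapped by at least 1 bp of an H3K9me2 peak, and 620 of the 171402 H3K9me2 peaks (0.362%, 95% CI 0.334 to 0.391) by an H3K9me1 peak. The share depended on the peaks taken. It was 62.0% of the H3K9me1 peaks when both lists were limited to q-values up to 1e-05, and 0.684% when H3K9me2 was reduced to the same number of peaks by fold. Of the 324 H3K9me1 peaks with such q-values, 147 had a fold enrichment over input under 2. With both lists limited to a fold of at least 5 the share was 8.85%. Among the strongest shared sites were runs of a 5-base unit and sites at the 7SL RNA genes. These genes, Rn7s1 and Rn7s2, encode the RNA of the signal recognition particle. The sequences below are examples, read from the plus strand of GRCm38.p6. Each comes from the 5 sites of highest fold of its class, except Npepps, the last of the 10 strongest promoter pairs. The Mydgf, Gm5415 and Ddr2 sites were first in their class, and the Hapln1 and Fbxo33 sites were number 4. Capitals mark bases that were also inside the H3K9me2 peak in the Mydgf site, and CpG dinucleotides in the other sites, of which that of Npepps shows only bases in peaks of both marks.
Both marks, in an intron 16.1 kb from the TSS of Mydgf (chr17:56200008-56200093): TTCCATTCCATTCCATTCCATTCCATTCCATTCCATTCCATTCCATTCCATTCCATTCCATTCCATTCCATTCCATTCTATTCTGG
H3K9me1 without H3K9me2, intergenic, 552 kb from Gm5415 (chr1:33099304-33099354): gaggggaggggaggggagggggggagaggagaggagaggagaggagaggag
H3K9me1 without H3K9me2, intergenic, 19.02 kb from Hapln1 (chr13:89521587-89521644): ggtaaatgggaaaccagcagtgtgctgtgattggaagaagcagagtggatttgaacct
H3K9me2 without H3K9me1, in an intron 51.5 kb from the TSS of Ddr2 (chr1:170037395-170037467): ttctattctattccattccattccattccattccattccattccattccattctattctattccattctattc
H3K9me2 without H3K9me1, intergenic, 43.4 kb from Fbxo33 (chr12:59262791-59263049): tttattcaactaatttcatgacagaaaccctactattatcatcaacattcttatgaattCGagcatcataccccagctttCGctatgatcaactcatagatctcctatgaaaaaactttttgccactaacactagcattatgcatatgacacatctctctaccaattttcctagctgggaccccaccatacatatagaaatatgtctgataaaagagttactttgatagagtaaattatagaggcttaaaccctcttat
Both marks, overlap of the peaks at the promoter of Npepps, an aminopeptidase gene (chr11:97280712-97280782): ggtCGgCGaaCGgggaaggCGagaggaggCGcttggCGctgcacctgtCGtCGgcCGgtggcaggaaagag
The Mydgf site is a run of a 5-base unit, and the Ddr2 site, called for H3K9me2 alone, is made of the same unit with a few other bases. All bases of the Mydgf site were in peaks of both marks. The Npepps overlap is rich in CpG, with 9 in 71 positions of the reference, as were other promoters with both marks.

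The lists differed most in size. H3K9me2 had 12.1 times as many peaks as H3K9me1 and covered 20.9 Mb against 1.22 Mb. On chromosomes 1 to 19, X and Y its peaks took up 0.787% of the bases, and those of H3K9me1 0.0447%. The ratio fell with strength. It was 6.18 among peaks with q-values up to 0.01, 1.90 with q-values up to 1e-05 and 1.36 at a fold enrichment over input of at least 5, where 767 H3K9me2 and 565 H3K9me1 peaks were left. Fold enrichment, as deposited, had a median of 3.91 in H3K9me1 and 3.33 in H3K9me2, with 5% of the peaks above 4.91 and 4.22. The depth of the libraries is unknown, so the number of sites of each mark and the power to call them cannot be told apart.

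Peak length also differed. For H3K9me1, 9105 peaks (64.2%) were 49 bp long, the minimum, and for H3K9me2, 64753 (37.8%) were at their minimum of 50 bp. The median was 49 bp for H3K9me1 and 92 bp for H3K9me2, and 90% of the peaks were no longer than 186 and 232 bp. H3K9me2 peaks also lay closer to each other, with a median gap of 4357 bp to the nearest other peak of the list against 55482 bp. Another peak lay within 1 kb for 14.3% against 1.99% of the peaks. These values were not adjusted for the 12.1 times higher number of H3K9me2 peaks, which by itself shortens the gaps. Wide domains of the kind known for H3K9me2 were not seen as single peaks. Only 508 H3K9me2 peaks (0.296%) and 43 H3K9me1 peaks (0.303%) were over 500 bp, and the longest on these chromosomes, 17612 bp for H3K9me2 (chr9:3016454-3034065), lay in a region where 96.0% of the bases were masked as repeats. Its fold enrichment was 1.89.

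How often H3K9me1 peaks were shared with H3K9me2 depended on the kind of peak. In promoters, defined as the 1000 bp before and 100 bp after a TSS, 90 of 465 H3K9me1 peaks were shared (19.4%, 95% CI 15.9 to 23.2). The share was 4.55% (95% CI 4.08 to 5.06) in intergenic sequence, 3.33% (95% CI 2.89 to 3.83) in introns and 3.49% (95% CI 2.11 to 5.39) in exons. Peaks at the shortest length were shared at 2.05%, those over 200 bp at 18.8%, and all 43 over 500 bp were shared. A longer peak meets the limit of 1 bp more easily, and the shares were not adjusted for length. Of the 43 peaks over 500 bp, 21 lay on chromosomes 1 to 19, X and Y. The longest, of 1492 bp (chr9:3000023-3001514), had a fold of 1.37 and 95.9% masked bases. By fold enrichment the highest shares were found at both ends. Of the 244 H3K9me1 peaks with a fold under 2, 229 (93.9%) were shared, against 3.26% of the 13369 with a fold from 2 to 5 and 10.6% of the 565 with a fold of at least 5. Of the 34 with a fold of at least 8, 32 were shared. The plot of sharing by class shows these shares with their intervals.

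**Figure D1:**
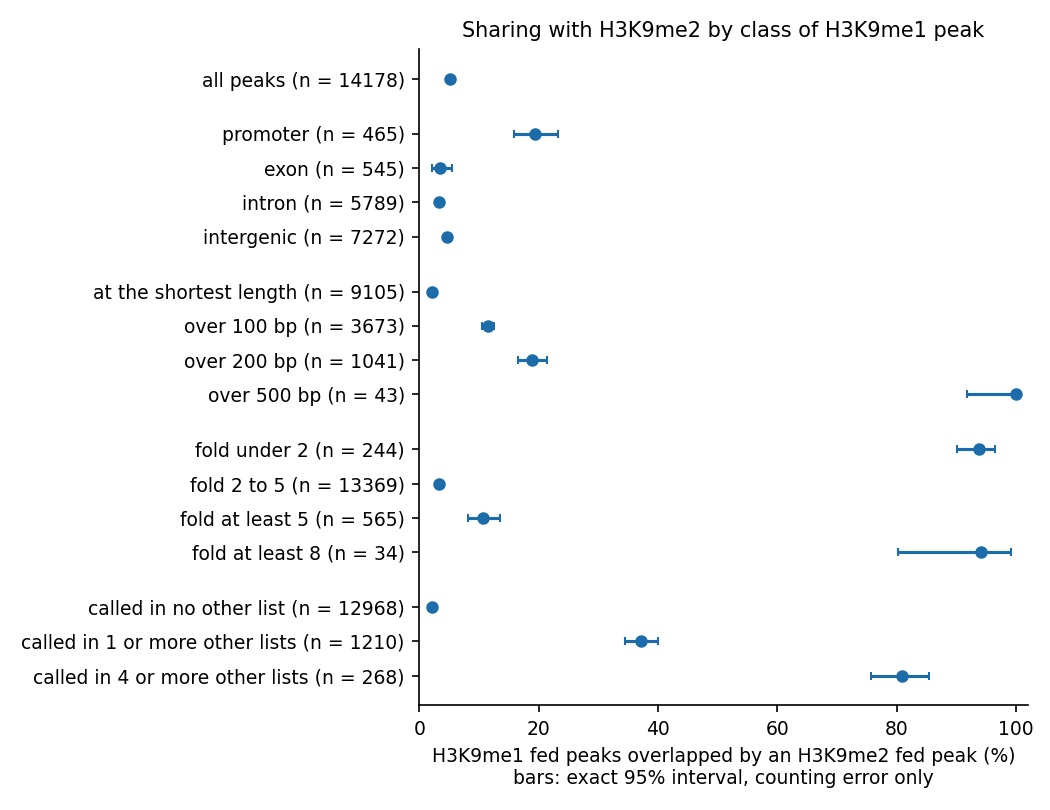
Share of H3K9me1 fed peaks overlapped by an H3K9me2 fed peak, in percent, for all peaks and by location, length, fold enrichment over input and presence in the other 6 lists. Points are shares and bars exact 95% intervals. The share is 5.11% for all peaks, 19.4% in promoters and over 90% for a fold under 2 and for a fold of at least 8.

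The other 6 lists of the series (GR and LSD1 in both conditions, and both marks after starvation) showed where these sites recurred. Of the 725 shared H3K9me1 peaks, 450 (62.1%, 95% CI 58.4 to 65.6) were also overlapped in 1 or more of these lists and 217 in 4 or more. Among the 13453 H3K9me1 peaks without H3K9me2, 760 (5.65%, 95% CI 5.27 to 6.05) were in 1 or more, and among the 170782 H3K9me2 peaks without H3K9me1, 8893 (5.21%, 95% CI 5.10 to 5.31). Fed LSD1 peaks overlapped 35.6% of the shared and 1.43% of the unshared H3K9me1 peaks, and fed GR peaks 25.5% and 1.46%. Fed GR or fed LSD1 peaks together overlapped 39.2% and 2.05%. The starved lists of the same marks overlapped 40% (H3K9me1) and 32.3% (H3K9me2) of the shared peaks, and 0.788% and 0.320% of the unshared ones. Up to 30 shared H3K9me1 peaks lay under 1 H3K9me2 peak, so a region can count more than once. By H3K9me2 peak the values were lower. Fed LSD1 overlapped 26.8% of the 620 shared and 1.55% of the unshared H3K9me2 peaks, and fed GR 15.8% and 1.32%. Of the 620, 19.5% were in 4 or more lists. Sharing was thus more frequent at sites that were also called in other lists, of other antibodies or of the same marks after starvation. Of the 12968 H3K9me1 peaks found in no other list, 275 (2.12%, 95% CI 1.88 to 2.38) overlapped H3K9me2.

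These shares were set beside the share of the genome that the H3K9me2 peaks cover. Midpoints of 469 of 14071 H3K9me1 peaks on chromosomes 1 to 19, X and Y lay inside an H3K9me2 peak (3.33%, 95% CI 3.04 to 3.64), against 0.787% of the bases, 4.24 times as many. In promoters the shares were 12.5% (95% CI 9.61 to 15.8) of the midpoints and 3.04% of the bases, in intergenic sequence 3.71% and 0.628%, in introns 2.19% and 0.951% and in exons 2.57% and 1.13%. For H3K9me1 peaks in no other list the midpoint share was 1.27% (95% CI 1.09 to 1.48), 1.62 times the covered share of the genome. The excess was smaller at larger distances. Within 1 kb of an H3K9me2 peak lay 18.5% of the H3K9me1 midpoints and 12.8% of the bases, and within 10 kb 76.1% and 66.4%. The median H3K9me1 peak was 4276 bp from the nearest H3K9me2 peak, and the median H3K9me2 peak 57410.5 bp from the nearest H3K9me1 peak. Bases that reads of this length cannot reach were not removed from the genome shares.

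The 726 overlapping pairs spread over a wide and continuous range of fold enrichment, which the plot of pair folds shows, and were described by the limits of 2 and 5 used above. The remaining pairs had folds on either side of a limit. In 181 pairs both folds were under 2, and 149 of these were called in 4 or more other lists. In 427 pairs both folds lay from 2 to 5. In 50 pairs both folds were at least 5, and 41 of these were called in 1 or more other lists. H3K9me2 was the longer peak in 581 pairs (80.0%), and in 376 (51.8%) the H3K9me1 peak lay wholly inside the H3K9me2 peak. The fold was higher for H3K9me1 in 363 of the 726 pairs, but among the 50 strong pairs it was higher for H3K9me2 in 44. A median of 68.5 bp was common to both peaks of a pair.

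**Figure D2:**
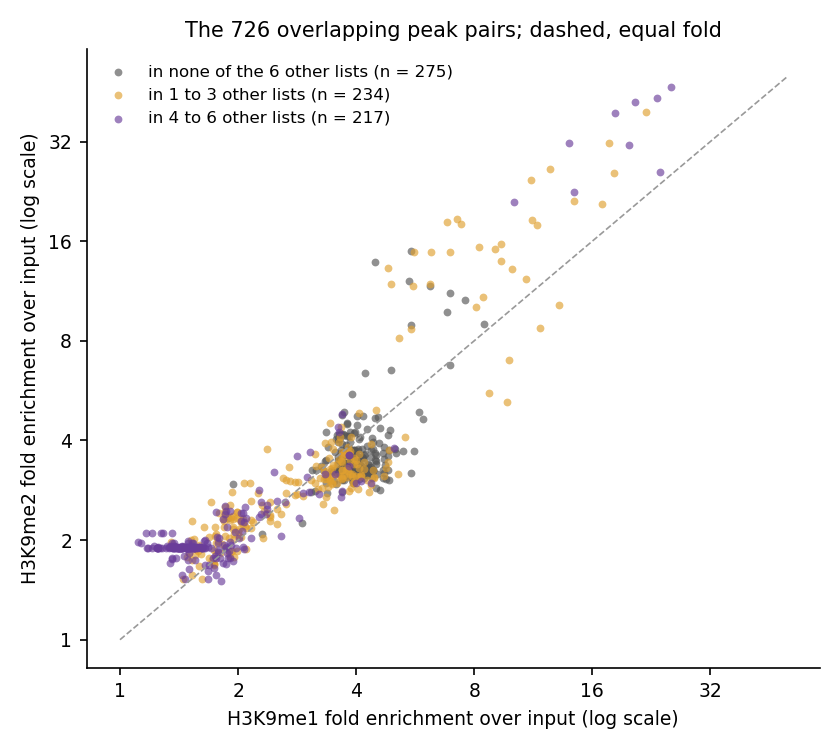
Fold enrichment over input of H3K9me1 (horizontal, log scale) and H3K9me2 (vertical, log scale) in the 726 overlapping pairs of fed muscle, 1 point a pair, coloured by the number of the other 6 lists that call the site. The 217 pairs called in 4 to 6 other lists lie mostly under a fold of 2, the 275 called in no other list mostly from 2 to 5, and 44 of the 50 pairs with both folds of at least 5 lie above the dashed line of equal fold.

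Many of the strong pairs shared a sequence feature that the choice of sites had not used, which was searched after the first sequences had been seen. Repeated units of the 5-base repeat, GGAATGGAATGGAAT on either strand, were present in 25 of the 50 pairs with both folds of at least 5, in 19 of the 29 pairs with both folds of at least 8 and in 0 of the 419 pairs with both folds from 2 to 5 on chromosomes 1 to 19, X and Y. They were present in 0.000393% of all 100-bp tiles of the genome, in 0 of 13438 H3K9me1 peaks without H3K9me2 and in 7 of 170536 H3K9me2 peaks without H3K9me1. Of the places in the reference with this repeat, 25.5% (95% CI 17.4 to 35.1) carried an H3K9me1 peak and 32.4% (95% CI 23.4 to 42.3) an H3K9me2 peak. Strong peaks of other lists held the repeat as well. With a fold of at least 5 it was in 24 of 1111 LSD1 fed and 2 of 1567 GR fed peaks. After starvation it was in 14 of 305 LSD1, 3 of 81 H3K9me2, 10 of 2137 H3K9me1 and 0 of 684 GR peaks of that strength. The highest pair, at Mydgf, had a fold of 25.5 for H3K9me1 and 46.7 for H3K9me2 and was called in 5 other lists. The Rn7s1 site had 5.58 and 11.7. Whether reads from other copies of these repeats contribute to the counts was not tested.

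Low folds were found mainly in repeats for H3K9me1. Of the 244 H3K9me1 peaks with a fold under 2, 95 lay on sequences other than chromosomes 1 to 19, X and Y, and the rest had a median of 94.6% masked bases. Among all 244, 147 had a q-value of 1e-05 or less despite the low fold. The 202 H3K9me2 peaks with a fold under 2 had a median of 57.8% masked bases, 61 had such a q-value and 83 were shared. The 5 strongest shared sites were masked as well, over 82.6% to 100% of their bases. The first assembled window of chromosome 9 (chr9:3000001-4000000) had the most H3K9me1 peaks of all windows on the autosomes, 44, of which 43 were shared. A single H3K9me2 peak held up to 30 H3K9me1 peaks. The longest H3K9me1 peak on chromosomes 1 to 19, X and Y outside this window had 22.1% of its bases masked. It lay in sequence classed as intron, not necessarily of the nearest gene, Sox2, whose TSS was 1.959 kb away. Sox2 encodes a transcription factor of stem cells. The site was singled out after its length had been seen. The H3K9me1 peak there spanned 1469 bp (chr3:34647302-34648770) with a fold of 8.70, and the H3K9me2 peak 1315 bp (chr3:34647325-34648639) with a fold of 5.57. GR fed had 1 peak of 1323 bp there with a fold of 3.50 and LSD1 fed had peaks of 205 and 650 bp, while the starved lists had none.

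By location the marks were much alike. Of the H3K9me1 midpoints on chromosomes 1 to 19, X and Y, 51.7% (95% CI 50.9 to 52.5) were intergenic, 41.1% (95% CI 40.3 to 42.0) intronic, 3.87% (95% CI 3.56 to 4.21) exonic and 3.30% (95% CI 3.02 to 3.61) in promoters. For H3K9me2 the shares were 49.5%, 43.5%, 3.47% and 3.53%, and for the bases of the genome 59.99%, 36.3%, 2.56% and 1.19%. Promoters thus held 2.79 times their share of the genome for H3K9me1 and 2.97 times for H3K9me2, a difference between the marks that lay within the counting error of the H3K9me1 share. The exon share of H3K9me2 had an interval of 3.38% to 3.56%, which only just cleared that of H3K9me1, and coding sequence outside promoters held 2.11% of H3K9me1 and 1.71% of H3K9me2 midpoints. Promoters held 14.2% (95% CI 11.6 to 17.2) of the H3K9me1 peaks with H3K9me2, 2.79% of those without, and 3.49% of the H3K9me2 peaks without H3K9me1. When peaks at fed GR or LSD1 sites were left out, the promoter share was 2.19% for H3K9me1, 2.46% for H3K9me2 and 8.09% (95% CI 5.63 to 11.2) for the remaining shared H3K9me1 peaks. Above a length of 500 bp, 110 of 495 H3K9me2 peaks (22.2%, 95% CI 18.6 to 26.1) and 0 of 21 H3K9me1 peaks lay in promoters, the latter allowing a share of up to 16.1%.

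Around the 30179 TSS of the autosomes both marks were densest in the 250 bp upstream of the start, at 4.87 times the autosome mean of H3K9me1 and 4.68 times that of H3K9me2. From 3 to 5 kb away the densities were 1.22 and 1.27 times the mean. At 11360 CpG-rich starts (GC content of at least 55% and at least 0.6 of the CpG expected from base composition within 500 bp, a class chosen after the profile had been seen) the density reached 9.20 times the mean for H3K9me1 and 7.85 times for H3K9me2, from 152 and 1580 midpoints. The H3K9me1 profile was narrower. Between 750 and 1000 bp upstream of these starts H3K9me1 was at 0.787 and H3K9me2 at 2.80 times the mean, and at the same distance downstream at 1.39 and 2.70 times. Counts of H3K9me1 were small there, with 13 and 23 midpoints. At the 18819 other starts the highest values were 3.10 and 2.76.

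**Figure D3:**
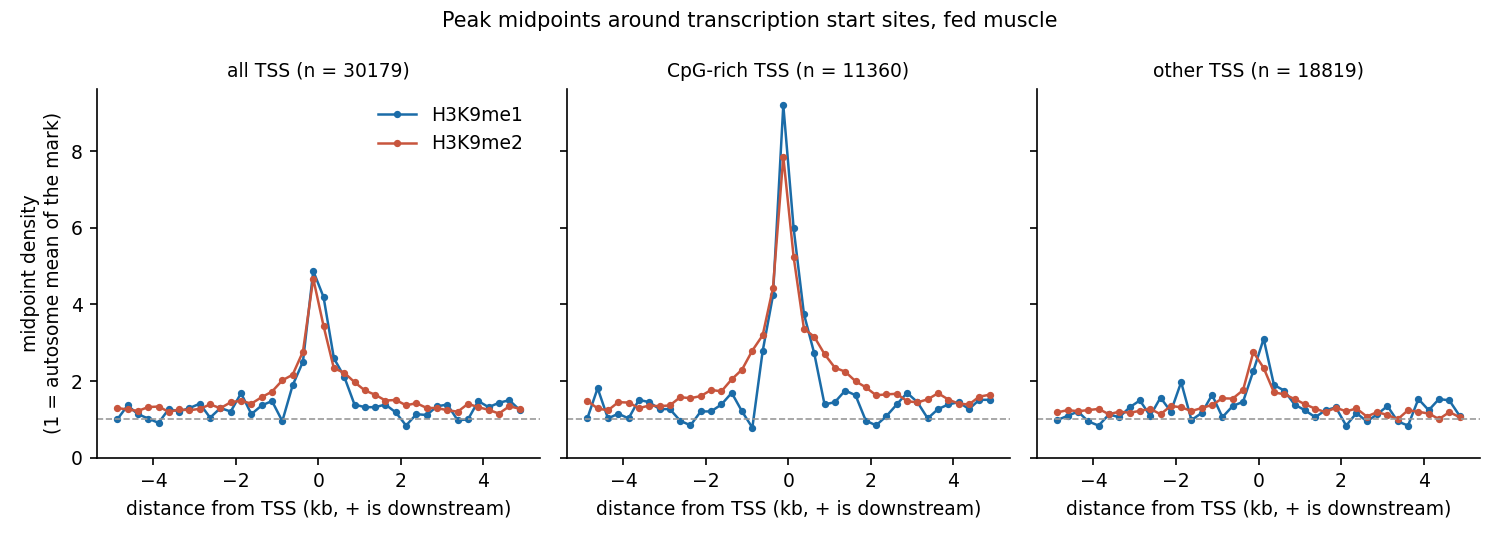
Density of peak midpoints in 250 bp bins from 5 kb upstream to 5 kb downstream of a TSS on the autosomes, relative to the autosome mean of each mark, for all 30179 TSS, 11360 CpG-rich TSS and 18819 other TSS. Both marks peak at the start, at 4.87 and 4.68 times the mean for all TSS, and H3K9me2 has the wider shoulders at CpG-rich TSS.

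Base composition differed by location and between the marks. The GC content had a median of 44.9% in H3K9me1 and 43.1% in H3K9me2 peaks, beside 41.7% over the genome. In promoters the medians were 59.2% and 55.2%, and outside promoters 44.9% and 42.7%. For q-values up to 1e-05 the order of the marks was reversed, with 41.4% in H3K9me1 and 48.0% in H3K9me2 peaks. Promoter peaks with both marks were the richest in GC, with a median of 64.8% for the H3K9me1 peaks and 7.57 CpG per 100 bp, against 58.9% and 5.33 in promoter H3K9me1 peaks without H3K9me2 and 54.99% and 4.85 in promoter H3K9me2 peaks without H3K9me1. Outside promoters, shared peaks were the richest in repeats. Masked bases made up 55.6% of the H3K9me1 peaks with H3K9me2 there, 25.7% of those without and 27.9% of the H3K9me2 peaks without H3K9me1, while 36.4% of the genome is masked.

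Both marks were denser in gene-rich than in gene-poor regions, H3K9me2 more so. In 1 Mb windows of the autosomes, H3K9me1 density was 4.99 peaks per Mb in the quartile of windows with the fewest genes and 6.77 in that with the most, a ratio of 1.36 (95% CI 1.29 to 1.42). For H3K9me2 it was 53.7 and 87.1 peaks per Mb, a ratio of 1.62 (95% CI 1.60 to 1.64). Windows differed widely within a quartile, and for H3K9me1 the middle ranges were 3 to 6 and 4 to 9 peaks per Mb. Without promoter peaks the ratios were 1.27 and 1.51. Across the 2397 windows the rank correlation with genes per Mb was 0.213 for H3K9me1 and 0.579 for H3K9me2, and with GC content 0.199 and 0.609. The median window of a quartile held 5 to 6.11 H3K9me1 peaks per Mb against 52 to 88 of H3K9me2. The correlations were not adjusted for these counts, so their sizes cannot be compared between the marks. Gene number and GC content were themselves correlated at 0.713, and all windows of a mark share 1 library. The share of H3K9me1 peaks with H3K9me2 was 2.44% (95% CI 1.92 to 3.06) in the gene-poorest and 5.82% (95% CI 5.12 to 6.59) in the gene-richest quartile. In the quartiles between, it was 4.59% and then 3.94%, so it did not rise at each step. H3K9me2 peaks themselves covered 6.15 kb per Mb in the gene-poorest and 11.1 kb per Mb in the gene-richest quartile, and the shares were not adjusted for this. The window densest in H3K9me2 was chr4:147000001-148000000 with 184 peaks per Mb, followed by chr4:146000001-147000000, chr11:3000001-4000000, chr17:35000001-36000000 and chr4:145000001-146000000. The window on chromosome 11 was also second in H3K9me1 with 25 peaks, while that on chromosome 17, with 76 genes and 164 H3K9me2 peaks, held no shared site.

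**Figure D4:**
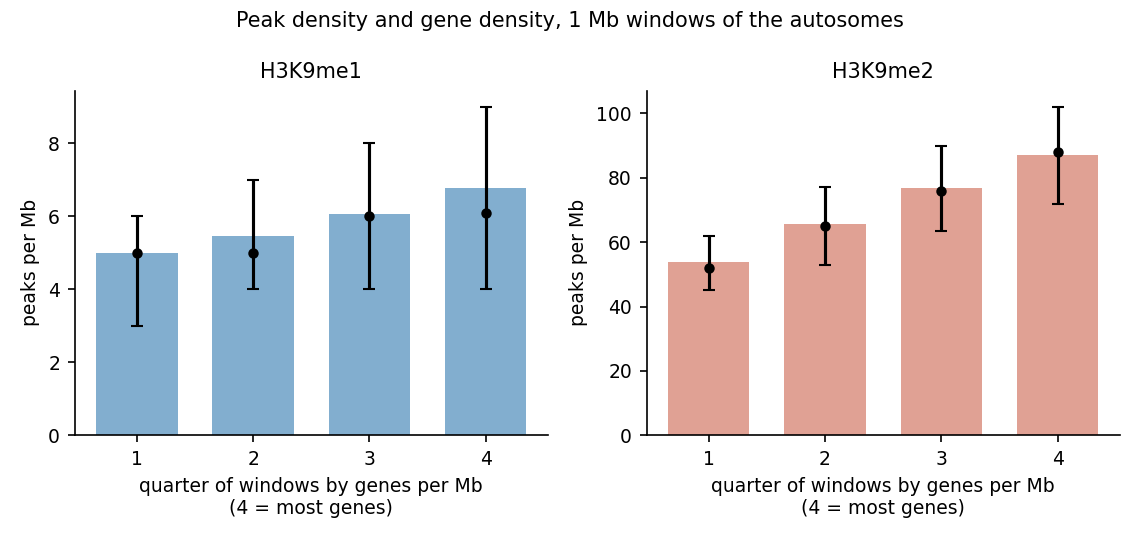
Peaks per Mb in 1 Mb windows of the autosomes by quartile of gene number, H3K9me1 left and H3K9me2 right. Bars give all peaks over all bases of a quartile, points the median window and lines its interquartile range. Density goes from 4.99 to 6.77 for H3K9me1 and from 53.7 to 87.1 for H3K9me2.

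Densities were then compared between chromosomes. Autosomes had 4.93 to 6.54 H3K9me1 and 65.1 to 82.6 H3K9me2 peaks per Mb, and 11.03 to 15 H3K9me2 peaks for each H3K9me1 peak, with the extremes on chromosomes 2 and 19. Chromosome X was lower in density. It held 0.703 H3K9me1 and 7.33 H3K9me2 peaks per Mb, 0.121 and 0.103 times the autosome mean, and its ratio of 10.4 was the lowest of all chromosomes. Among peaks with a fold of at least 5 the density of X was 0.105 (4 peaks) and 0.214 (11 peaks) times that of the autosomes. In the other 6 lists the density of X was 0.0737 to 0.218 times that of the autosomes. Chromosome Y held 14 H3K9me1 and 199 H3K9me2 peaks. The number of X chromosomes in the animals was not used, and its part in the low density was not tested.

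**Figure D5:**
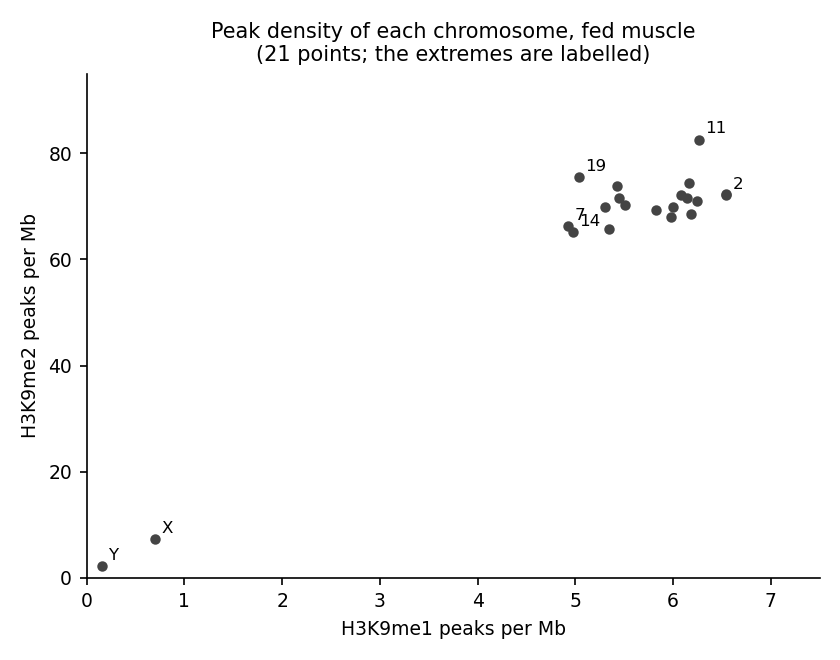
Peaks per Mb of H3K9me1 (horizontal) and H3K9me2 (vertical) for chromosomes 1 to 19, X and Y, 1 point a chromosome. The autosomes lie from 4.93 to 6.54 and from 65.1 to 82.6, and X and Y lie near the origin.

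Genes were then counted by mark. Of 26182 gene loci, 507 (1.94%) had an H3K9me1 midpoint in a promoter, 5847 (22.3%) an H3K9me2 midpoint and 208 (0.794%) both. Of the 507, 41.0% also had H3K9me2, and 299 had H3K9me1 alone. Overlapping pairs were found in the promoters of 106 genes. In the gene body, 16.6% of the genes had an H3K9me1 and 60.9% an H3K9me2 midpoint. Long genes held more peaks but not more per length. From the shortest to the longest quartile of autosomal genes, peaks per 100 kb of gene went from 0.950 to 0.623 for H3K9me1 and from 11.6 to 7.89 for H3K9me2, so both marks declined by a like proportion. In the longest quartile 98.5% of the genes held H3K9me2 and 45.8% held H3K9me1.

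The gene lists were read against the promoter shares of all genes, 1.94% for H3K9me1 and 22.3% for H3K9me2. Genes of cytosolic ribosomal proteins had H3K9me1 in the promoter in 7 of 83 cases (8.43%) and H3K9me2 in 37 (44.6%), and those of complex I of the respiratory chain in 3 and 17 of 42 (40.5% for H3K9me2). Zinc finger protein genes, many of which encode repressors, had H3K9me2 in 139 of 403 promoters (34.5%) and H3K9me1 in 9 (2.23%), and Hox genes, regulators of the body axis, had 12 and 2 of 39. Sarcomere genes, which encode the contractile apparatus, had H3K9me2 in 4 of 25 promoters and H3K9me1 in 1, while 14 liver genes had 1 and 0. Receptor genes of the nose had few promoter peaks. Olfactory receptor genes had H3K9me2 in 55 of 1125 promoters (4.89%) and H3K9me1 in 5 (0.444%), and vomeronasal receptor genes in 12 and 1 of 350. These genes are short. In their bodies H3K9me2 was at 5.04 and 3.89 peaks per 100 kb against 7.95 over all genes, and H3K9me1 at 0.762 and 0.120 against 0.628, so that olfactory receptor genes were not low in H3K9me1 by length. Reads without a unique location had been dropped, and the part of near-identical gene copies in these counts was not tested. Clustered protocadherin genes, which serve the recognition between neurons, had H3K9me2 in 5 of 58 promoters and H3K9me1 in 2, and 7.47 and 0.267 peaks per 100 kb of body.

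Genes that write, erase or read the marks were counted in the same way. H3K9me2 was in the promoter of 2 of 9 methyltransferase genes (22.2%, beside 22.3% of all genes), Ehmt2 and Setdb1. Of 11 demethylase genes 6 had it (54.5%), namely Jmjd1c, Kdm4a, Kdm4b, Kdm4c, Kdm7a and Phf2. Of 10 reader genes 3 had it (30%), Cdyl, L3mbtl2 and Uhrf1. H3K9me1 was in none of these promoters, and with 1.94% of all genes carrying it, these lists are too short to set their count of 0 apart. In gene bodies H3K9me1 was found in 4 of 9 methyltransferase, 2 of 11 demethylase and 3 of 10 reader genes, beside 16.6% of all genes. H3K9me2 was found in 8, 11 and 10, beside 60.9% of all genes. These genes were long, with medians of 38.9, 69.1 and 22.3 kb against 13.5 kb over all genes. In the longest quartile of autosomal genes 98.5% held H3K9me2, so these counts do not set the lists apart. Ehmt1 held 23 H3K9me2 peaks over 129 kb, Kdm4c 25 over 163 kb, and Kdm1a, the gene of LSD1, 6 over 52.2 kb, each without H3K9me1. Setdb1 and Setdb2, both methyltransferase genes, held 4 H3K9me2 peaks and 1 H3K9me1 peak each. Suv39h1, on chromosome X, had no peak of either mark in its body or within 30 kb.

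At 6 loci that the study used as examples for these marks, H3K9me1 was in 3 and H3K9me2 in 5 promoters, a list that is not independent of these libraries. At Calm2, a calmodulin gene, the promoter held H3K9me1 (chr17:87446962-87447102, fold 3.57) inside H3K9me2 (chr17:87446769-87447129, fold 2.97). Rap2b, which encodes a small GTPase, had an overlapping promoter pair of H3K9me1 (chr3:61363884-61363932, fold 3.92) and H3K9me2 (chr3:61363656-61363906, fold 2.98). At Tfcp2, a transcription factor gene, a 53 bp H3K9me1 peak (fold 4.18) lay 0.150 kb downstream of the TSS within a 305 bp H3K9me2 peak (fold 3.29). Mtch1, whose product sits in the outer mitochondrial membrane, had its pair 5.62 kb into the gene. Calm3 had H3K9me2 alone. Each of the H3K9me1 peaks at Calm2, Rap2b, Tfcp2 and Mtch1 was called in 3 other lists. Of the catabolic genes Trim63 and Fbxo32, both of which encode muscle ubiquitin ligases, Trim63 had 1 H3K9me2 peak in the promoter (fold 3.11) and 1 in an intron (fold 3.31), and Fbxo32 had 6 in the body, none with H3K9me1. Ddit4, an inhibitor of growth signalling, had 2 H3K9me2 peaks in the body, and the muscle stem cell gene Pax7, a control of the study, had 3 in introns. Fbxo31 and Pik3r1 complete this list of 6 genes. Each held 1 H3K9me1 peak in the body, beside 2 H3K9me2 peaks in Fbxo31 and 23 in Pik3r1. Thus 2 of the 6 (33.3%) had H3K9me1 in the body, beside 16.6% of all genes.

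Promoters with the strongest pairs were those of Rn7s2, Rn7s1, Hspa13, Limk1, Gm15408, Rcan3, Smc2os, 1110002L01Rik, Mtag2 and Npepps. Rn7s2 led with folds of 7.22 for H3K9me1 and 18.7 for H3K9me2. Limk1, which encodes a kinase of the actin cytoskeleton, had 3.89 and 4.10, and Npepps, whose sequence is printed above, 4.06 and 3.65. At Rcan3, a regulator of calcineurin, the peaks shared only 2 bp. Of these 10 sites 9 were called in 1 or more other lists, the exception being Smc2os.

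Apart from Sfi1, the genes with most peaks in the body were very long. Ptprd, which encodes a receptor phosphatase of synapses, held 141 H3K9me2 peaks, the most of all genes, and 15 H3K9me1 peaks over 2271 kb. H3K9me2 was next in Cntnap2 and Macrod2 with 118 each, Lsamp with 115 and Fhit with 105. H3K9me1 was highest in Sfi1 with 20 peaks, followed by Ptprd, Dlg2 with 13, and Gpc5 and Nrxn3 with 12 each. Of 15 long neuronal adhesion and synapse genes, 14 held H3K9me1 and 15 held H3K9me2 in the body and none in the promoter. Their density of 0.471 and 5.16 peaks per 100 kb was below that of all genes, 0.628 and 7.95. Sfi1, a centrosome gene at the start of chromosome 11, was the densest in both marks among genes of at least 10 kb with at least 5 peaks of the mark, with 29.1 H3K9me1 and 84.3 H3K9me2 peaks per 100 kb, 20 and 58 peaks of which 12 H3K9me1 peaks were shared. It was followed for H3K9me1 by 2700054A10Rik (7.45) and Tmem267 (7.35), where 3 of 5 and 7 of 9 peaks were shared, and for H3K9me2 by Erdr1 on chromosome Y (80.6), Pea15a (59.5), Tcp10c (57.4) and Gorasp1 (50.5).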

How the data were processed

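ChIP-seq libraries of fed muscle were analysed from the peak lists deposited by the authors. Their methods state single-end reads mapped to mm10, reads with a unique location kept, a human blacklist applied and broad peaks called per library with MACS2 against the input library. They state a false discovery rate of 0.01, whereas the deposited q-values reached 0.0998, and they name Bowtie although the peak names carry Bowtie2. The submitters' processing notes name bcl2fastq 2.20.0.422. Per peak, the deposited lists give the ratio to input (fold enrichment), and −log10 of a q-value, from which the q-values here were taken. Read numbers were not used here, so depth is unknown.

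Coordinates are 1-based on GRCm38.p6 (mm10). Midpoints were assigned to promoter, exon, intron or intergenic sequence, in this order, with 45756 curated RefSeq transcripts of 26182 gene loci. The class can come from any transcript at the site, which need not belong to the nearest gene named. Intervals are exact (Clopper-Pearson) 95% limits and cover counting error only. Functions were tested on simulated data. Shares were set beside those of non-gap bases, since no test can be made with 1 library a mark. Named peaks were the 5 of highest fold of each class, and named genes the short lists, those with most or densest peaks and the 10 strongest promoter pairs. Sites, gene lists and rules were chosen with earlier results of these data known. Python 3.11.15, numpy 2.4.6, pandas 2.3.3, scipy 1.17.1 and matplotlib 3.10.9 were used. Alternatives are given in the closing section. A few items are not reported here.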

Additional observations from a re-analysis of the deposited data

Results flagged for a closer look

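Peaks on sequences of the assembly other than chromosomes 1 to 19, X and Y entered the counts and overlaps but not the shares by location. H3K9me1 had 107 such peaks (0.755%, 95% CI 0.619 to 0.911), of which 92 were shared with H3K9me2, and H3K9me2 had 282 (0.165%, 95% CI 0.146 to 0.185), of which 36 were shared with H3K9me1. They are listed here because they lie outside the sequence on which location was compared. An unplaced sequence, chrUn_JH584304, held 77 of the H3K9me1 and 55 of the H3K9me2 peaks, with a median fold of 1.52 and 1.79.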

How the results depend on the processing

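Of 96 values recomputed with other settings, 15 stayed within the 95% counting interval of the value as deposited and 81 did not; the cause was not tested beyond what each alternative removes. H3K9me2 had more peaks than H3K9me1 and both density ratios were above 1 under each alternative run, although the interval of the H3K9me1 ratio included 1 for q-values up to 1e-05 (0.831 to 1.85) and at a fold of at least 5 (0.932 to 1.52). Below, values are given in the order ratio of peak numbers, percent of H3K9me1 peaks overlapped, percent of H3K9me2 peaks overlapped, promoter percent of H3K9me1 and of H3K9me2, and density ratio of H3K9me1 and of H3K9me2. For q-values up to 0.01 they were 6.18, 5.75%, 0.649%, 2.89%, 3.78%, 1.29 and 1.66, and for q-values up to 1e-05 1.90, 62.0%, 17.1%, 1.94%, 2.33%, 1.24 and 1.46. At a fold of at least 5 they were 1.36, 8.85%, 6.52%, 2.48%, 2.48%, 1.19 and 1.65. For peaks above the shortest length they were 21.02, 9.72%, 0.366%, 5.45%, 4.41%, 1.66 and 1.79. Without peaks at fed GR or LSD1 sites they were 12.3, 3.16%, 0.256%, 2.19%, 2.46%, 1.29 and 1.55, and without peaks in which at least 50% of the bases were masked 12.1, 4.17%, 0.299%, 4.05%, 4.29%, 1.49 and 1.77.

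With H3K9me2 reduced to the 14178 peaks of highest fold, 0.684% of the H3K9me1 and 0.684% of the H3K9me2 peaks were overlapped, the H3K9me2 promoter share was 2.73% and its density ratio 1.54. Requiring an overlap of 50% of the shorter peak gave 4.25% and 0.290%, midpoints within 500 bp 11.1% and 0.953%, and nearest peaks within 1 kb 19.5% and 1.74%. With promoters extended to 1 kb downstream the shares were 5.13% and 5.36%, and with any base in a promoter that of H3K9me2 was 3.85%. By base pairs covered the ratio of the marks was 17.2 and the density ratios 1.51 and 1.81; with peaks within 1 kb merged the ratio was 11.4, and with 500 kb windows the H3K9me2 density ratio was 1.66. The share of genes with both marks within 30 kb of a TSS, 32.7% as deposited, ranged from 0.202%, at a fold of at least 5 as for q-values up to 1e-05, to 30.7% without fed GR or LSD1 sites. No paired analysis was possible because each mark has 1 library. The promoter share was the higher for H3K9me1 among peaks above the shortest length and with H3K9me2 reduced, and equal to 3 digits at a fold of at least 5. Depth is unknown, so weak sites missing from either list were not detectable, which does not show that they are absent.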
